A study of Homo sapiens with 47 samples.

Results

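The genes of the caveola coat were followed through single-cell RNA-seq of circulating tumor cells (CTC). The 7 genes were chosen by name, as caveolins (CAV1, CAV2), cavins (CAVIN1, CAVIN2, CAVIN3) and the membrane-shaping proteins found at caveolae (EHD2, PACSIN2), out of 25739 genes in the deposited table. LM2 is a lung-metastatic line derived from the human triple-negative breast cancer line MDA-MB-231. GFP-labeled LM2 cells were implanted in the mammary fat pad of NOD/SCID gamma (NSG) mice, a strain without T, B and NK cells, and spread on their own. CTCs were enriched from whole blood by size, picked one by one by their GFP signal and sequenced with SMARTseq2. The 37 CTCs with values came from 5 mice. Mouse 5541 gave 2 CTCs, mice 5542 and 5549 gave 4 each, mouse 5545 gave 10 and mouse 5546 gave 17. The 6 cultured cells, picked from LM2 cells in dish culture, stand for 1 culture. All cells carry the same tumor line and the GFP label, so neither group is an untreated tissue.

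Caveolae are flask-shaped pits of the plasma membrane that are abundant in endothelial, fat, muscle and mesenchymal cells. Caveolins insert into the membrane from the inside and form oligomers, and cavins assemble around them as an outer coat, which CAVIN1 organizes and without which caveolae do not form in most cells. Caveolae flatten when the membrane is stretched and thereby act as a membrane reserve under mechanical load. EHD2, an ATPase, sits at the caveola neck and holds the pit at the surface, and PACSIN2, a protein with an F-BAR domain, bends membrane there.

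The cells had 469614 to 2041333 reads on genes in CTCs and 776949 to 1186197 in cultured cells. CTCs had 2227 to 11010 genes with reads, and cultured cells 7226 to 12271. The titles of mouse 5546 carry a letter, c for 9 CTCs and s for 8, whose meaning is not given in the sources used here. The c cells had 7438 to 11010 genes with reads and the s cells 4225 to 6942, with no overlap. Values are normalized read counts, that is, reads on a gene scaled by a size factor for each cell, and gene means were compared over mice, since cells of 1 mouse share their source. Of 8 listed genes of mesenchymal tumor lines, VIM, CD44, AXL and S100A4 had reads in 37 of 37 CTCs and 6 of 6 cultured cells. SPARC had reads in 35 of 37 CTCs, ZEB1 in 33, FN1 in 32 and TWIST1 in 1. Of 9 listed epithelial genes, KRT8 and KRT18 had reads in 37 of 37 CTCs, KRT19 in 31 and CLDN7 in 25. EPCAM and CLDN4 had reads in 8 each, CLDN3 in 3, ESRP1 in 2 and CDH1 in 1. These genes describe the cells and do not identify the line.

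CAV1, the main structural caveolin, had reads in 37 of 37 CTCs. CAV1 lies on chromosome 7 (GRCh38, chr7:116524994-116561179, plus strand). Its normalized read count was 66.9 and 984 in the 2 CTCs of mouse 5541, and 102, 131, 216 and 426 in the 4 CTCs of mouse 5542. The 4 CTCs of mouse 5549 had 442, 461, 722 and 889. CTCs of mouse 5545 ran from 89.0 through a median of 827 to 1224, and those of mouse 5546 from 266 through 1557 to 8370. Cultured cells ran from 528 through 881 to 1430, inside the range of the CTCs. All CTCs of mouse 5542 were below every cultured cell. In all, 9 CTCs were above every cultured cell and 13 were below, and the 9 were all from mouse 5546.

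CAV2, the partner that joins CAV1 in hetero-oligomers, lies upstream of CAV1 on the same strand (chr7:116287380-116508541), with 16452 bases between the end of CAV2 and the start of CAV1. It had reads in 36 of 37 CTCs and was at 0 in CTC 5545-6, which had the fewest genes with reads of all 37 (2227). Its normalized read count was 48.9 and 58.0 in mouse 5541, and 25.4, 59.96, 77.2 and 147 in mouse 5542. Mouse 5549 had 67.8, 73.3, 98.5 and 124. These 10 CTCs, apart from the 3 highest, were below every cultured cell, since cultured cells ran from 82.1 through 129 to 249. Mouse 5545 ran from 0 through 69.4 to 410 and mouse 5546 from 19.9 through 203 to 833. Mouse 5546 had the highest mouse mean for both, 1960 for CAV1 and 273 for CAV2, as it did for each member but CAVIN3. The share of all genes with their highest mean in this mouse is not given here.

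The upstream sequences of the 2 caveolin genes are shown because the pair had the highest correlation over CTCs among the members, as given further on. RefSeq (GRCh38.p14) lists 3 starts for CAV1 and 2 for CAV2, and 1 is shown for each, read 5′ to 3′ on the plus strand. The CAV1 stretch (chr7:116524759-116524993) has 235 bases before the start of the gene model, and the CAV2 stretch (chr7:116499488-116499737) has 250 bases. The CAV2 stretch lies before a RefSeq start but inside the CAV2 gene model, whose first base is farther upstream. Capitals mark GGGCGG, the core letters of the SP1 motif, on either strand.
CAV1: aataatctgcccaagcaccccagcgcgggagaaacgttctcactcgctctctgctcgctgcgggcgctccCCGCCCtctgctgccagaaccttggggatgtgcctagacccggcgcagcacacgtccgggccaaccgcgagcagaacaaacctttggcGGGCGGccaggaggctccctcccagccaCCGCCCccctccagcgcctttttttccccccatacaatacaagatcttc
CAV2: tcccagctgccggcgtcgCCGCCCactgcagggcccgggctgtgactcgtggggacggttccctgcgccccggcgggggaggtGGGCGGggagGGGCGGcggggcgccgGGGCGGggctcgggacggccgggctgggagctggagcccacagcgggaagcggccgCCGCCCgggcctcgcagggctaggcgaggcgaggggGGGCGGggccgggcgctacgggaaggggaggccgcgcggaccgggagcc
The letters GGGCGG or their reverse complement occurred 3 times in the CAV1 stretch and 6 times in the CAV2 stretch, and in 42.3% of the 27305 listed promoters at least once in their 250 upstream bases. These letters are all G or C, which made up 64.3% of the CAV1 stretch and 83.2% of the CAV2 stretch. The share over all promoters is not matched for this. EHD2 had 1 match, and CAVIN2 and PACSIN2 none. GGAATG, the core of the TEAD motif, was in none of the caveolin stretches, and occurred once each in CAVIN2 and PACSIN2 and in 11.9% of all promoters. The AP-1 letters TGANTCA (6.60% of all promoters) and the sterol element TCACNCCAC (0.875%) had no match in the stretch taken for each of the 5 members with an entry. These matches describe letters and no binding was measured.

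CAVIN1 (chr17:42402449-42423256, minus strand), the cavin required for the coat, had reads in 36 of 37 CTCs. Its normalized read count was 466 and 211 in mouse 5541, and 147, 163, 276 and 311 in mouse 5542. In mouse 5549 it was 0, 95.3, 237 and 301, and the CTC at 0, 5549-6, had 588141 reads on genes. The range was 127 to 513 with a median of 233 in mouse 5545, 93.1 to 1361 with a median of 335 in mouse 5546, and 159 to 518 with a median of 397 in cultured cells. CTCs covered the culture range on both sides, with 5 CTCs above every cultured cell and 11 below. Mouse means ran from 158 in mouse 5549 to 461 in mouse 5546, a narrower range than that of CAV1 (219 to 1960).

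CAVIN2 (chr2:191834310-191847088, minus strand), a phosphatidylserine-binding cavin that shapes caveolae, had nearly all of its CTC reads in 1 mouse. None of the 10 CTCs of mice 5541, 5542 and 5549 had a read, which allows a share of up to 30% of CTCs with a read. In mouse 5545, 2 of 10 CTCs had reads, at 0.942 and 1.60 normalized and 4 reads in all. In mouse 5546, 10 of 17 had reads. The 7 positive c cells had 0.523, 2.29, 6.80, 11.0, 16.8, 19.6 and 47.4, and the 3 positive s cells had 2.06, 36.3 and 70.1. Thus 7 of 9 c cells and 3 of 8 s cells of this mouse had CAVIN2 reads, and 402 of the 406 CAVIN2 reads of all CTCs came from mouse 5546. Cultured cells had 0 in LM-10, which had the fewest genes with reads of the 6, and 5.97, 12.3, 22.6, 41.5 and 53.9 in the others.

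In reads per 1000000 on genes, summed CAVIN2 reads came to 19.01 in mouse 5546 and 18.8 in culture, so these values lay close together. Mice 5541, 5542 and 5549 had 0 reads among 13631005 on genes. With 3 reads over the 3 mice as the floor, their sum would be 85.6-fold lower than culture. That figure takes reads as independent, but SMARTseq2 reads carry no molecular identifiers, and 1 CTC, 5546-s1, alone had 132 CAVIN2 reads. It is therefore no lower bound on the difference, since only 10 CTCs of these mice were seen. In cell counts, 12 of 37 CTCs (32.4%, exact 95% binomial interval 18.0% to 49.8%) and 5 of 6 cultured cells (83.3%, 35.9% to 99.6%) had a CAVIN2 read. Binomial intervals here and further on take cells as independent and leave out the spread between mice, which gave 0 of 2, 0 of 4, 2 of 10, 10 of 17 and 0 of 4 CTCs. CTCs with and without CAVIN2 reads overlapped in genes with reads, at 4728 to 11010 with a median of 8200.5 and 2227 to 9602 with a median of 7173. CAVIN2 is also known as abundant in platelets, and the summed normalized read count of 8 platelet genes (7 in the table) had a median of 0 both in CTCs with CAVIN2 reads (highest 13.2) and in those without (highest 77.3). PF4, a defining platelet gene, had reads in 3 of 37 CTCs. Other blood cell sums were higher at the median in CTCs with CAVIN2 reads than in those without, at 1350 (23.1 to 3910) and 638 (0 to 12522) for erythroid genes and 62.4 (6.12 to 839) and 18.6 (0 to 829) for leukocyte genes, with overlapping ranges. Their part in the result was not tested.

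CAVIN3 (chr11:6318946-6320532, minus strand), a cavin that binds protein kinase C delta, had reads in 37 of 37 CTCs. Its normalized read count was 114 and 929 in mouse 5541, and 132, 311, 1631 and 4730 in mouse 5542. Mouse 5549 had 173, 200, 280 and 1169. Thus 1 CTC stood above the others by over 2-fold in both mice 5542 and 5549. The range was 70.6 to 1080 with a median of 541 in mouse 5545, 74.8 to 4294 with a median of 1161 in mouse 5546, and 58.8 to 499 with a median of 279 in cultured cells. In all, 20 CTCs were above every cultured cell and 0 were below all of them.

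EHD2 (chr19:47713422-47743134, plus strand) had reads in 37 of 37 CTCs, at levels that spread widely between cells. The normalized read count was 15.1 and 76.5 in mouse 5541, 0.461, 23.9, 30.3 and 65.4 in mouse 5542, and 1.34, 1.67, 4.49 and 33.9 in mouse 5549. It ran from 1.17 through 32.5 to 116 in mouse 5545, from 1.59 through 29.4 to 201 in mouse 5546, and from 51.7 through 98.8 to 110 in cultured cells. A majority of CTCs, 26 of 37, were below every cultured cell, and 4 were above. Such counts, here and for the other members, are not set beside all genes. Of the genes fitted, 46.3% had all 5 mouse means below the culture mean, as EHD2 did. The SD of log2(value + 1) was 1.92 over CTCs for EHD2, against 1.53 for CAV1, 1.78 for CAV2, 1.65 for CAVIN1 and 1.57 for CAVIN3. On the linear scale the order differed, with a CV of 106% for EHD2, 124% for CAV1, 111% for CAV2, 112% for CAVIN3 and 86.9% for CAVIN1. In the 6 cultured cells the SD of log2(value + 1) was 0.45 for EHD2, 0.47 for CAV1 and 1.08 for CAVIN3.

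PACSIN2 (chr22:42835412-43015149, minus strand) was the lowest member beside CAVIN2, with reads in 18 of 37 CTCs (48.6%, exact 95% binomial interval 31.9% to 65.6%). Its gene model overlaps ARFGAP3 on the same strand, and no other member overlaps a protein-coding gene. Reads were found in both CTCs of mouse 5541, in 2 of 4 for mouse 5542 and in 7 of 10 for mouse 5545. Mouse 5546 had them in 6 of 17 CTCs and mouse 5549 in 1 of 4. The mean over 37 CTCs was 5.83, and 3.40 without CTC 5546-s8, which alone had 93.5. In culture 5 of 6 cells had reads, and the highest had 37.1.

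**Figure D1:**
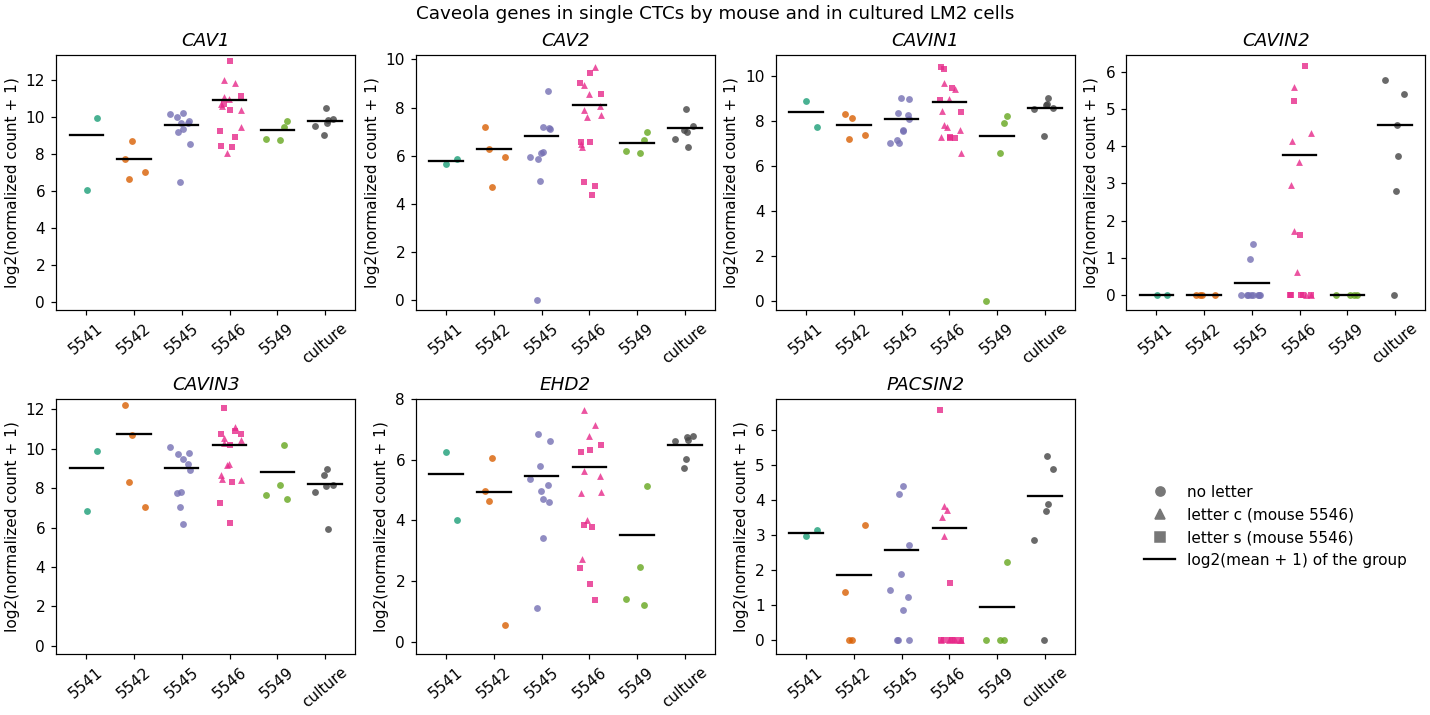
Each panel plots 1 caveola gene as log2(normalized read count + 1) per cell (points) for the 5 mice and the 6 cultured cells, with a bar at the log2 of the group mean plus 1. CAVIN2 reads sit almost only in mouse 5546 and culture. EHD2 is below all cultured cells in 26 of 37 CTCs, a count not set beside all genes.

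Whether the coat genes differed between CTCs in blood and the line in culture was asked over mice. As mean of mouse means ± SD (n = 5 mice) against the culture mean (1 culture), CAV1 was 821 ± 668 against 904, CAV2 was 121 ± 87.2 against 140 and CAVIN1 was 291 ± 116 against 379. For these 3 genes 1 mouse, 5546, was above the culture mean and 4 were below. CAVIN3 was 873 ± 546 against 290, with all 5 mice above. EHD2 was 36.5 ± 16.8 against 88.6, PACSIN2 was 4.77 ± 3.05 against 16.2 and CAVIN2 was 2.56 ± 5.57 against 22.7, with all 5 mice below. Of the 14594 genes fitted, 1.59% had all 5 mouse means above the culture mean and 46.3% had all 5 below. In reads per 1000000, 4.4% were above and 26.5% below in all 5. By cell means on that scale CAVIN3 was above in 5 of 5 mice, CAV1, CAV2 and CAVIN1 in 3 of 5 each, CAVIN2 in 1 (mouse 5546), and EHD2 and PACSIN2 in 0. By summed reads EHD2 was at 68.3 in mouse 5546 and 67.5 in culture.

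No member passed the test. With limma on log2(mean + 1) over 5 mice and 1 culture, 0 of 7 members were called at an adjusted p of 0.05, against 0.0206% of all genes called higher in CTCs (3 genes), 0.534% lower (78) and 0.555% in either direction. At an unadjusted p under 0.05 there were 1569 genes. The median of all genes was -1.09, so differences are also given relative to it. CAVIN3 differed by 1.38 on the log2 scale (SE 0.78, limma adjusted p = 0.52), or 2.47 above the median, and 98.6% of genes lay below it (91.7% with edgeR). CAVIN2 differed by -3.75 (SE 1.47, limma p = 0.0261, adjusted p = 0.41), or -2.66 relative to the median, and 1.418% of genes lay below it (4.47% with edgeR). Without mouse 5546, CAVIN2 differed by -4.49 (limma adjusted p = 0.00531) and was then 1 of 384 genes called lower, but the 4 mouse means left were 0 to 0.255, so that value depends on the pseudocount and on a spread near 0. Averaging log2 values of cells in place of cell means also called CAVIN2, with all 5 mice, at -3.24 (limma adjusted p = 0.0292), beside 989 genes lower in all.

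CAV1 differed by -0.49 (SE 0.91, limma adjusted p = 0.797), CAV2 by -0.44 (SE 0.88, adjusted p = 0.808) and CAVIN1 by -0.47 (SE 0.70, adjusted p = 0.757). These signs depended on scaling, since edgeR on summed reads gave 1.21, 1.07 and 0.87. Relative to the median of all genes the 3 genes were above it at 0.60, 0.65 and 0.62 with limma and 0.96, 0.82 and 0.62 with edgeR, where that median was 0.25, but were below it at -0.25, -0.20 and -0.23 with no filter on genes and close to it at 0.04, 0.11 and 0.06 with a pseudocount of 8. EHD2 differed by -1.44 (SE 1.03, limma adjusted p = 0.576) and PACSIN2 by -1.79 (SE 1.56, adjusted p = 0.629), which edgeR put at -0.05 and -0.43. Relative to the median of all genes, EHD2 and PACSIN2 were at -0.35 and -0.70 with limma and -0.30 and -0.68 with edgeR. With limma, 38.8% of genes lay below EHD2 and 28.5% below PACSIN2. The 95% intervals of the limma differences were wide, from -2.49 to 1.51 for CAV1 and from -0.32 to 3.07 for CAVIN3. edgeR's quasi-likelihood test called 0% of 12239 genes in either direction, with 194 at an unadjusted p under 0.05, and CAVIN3 had 2.89 (edgeR p = 0.0104, adjusted p = 1.00). By a rule of size, at least 4-fold in 1 direction in each mouse with 1 added to the means, 0 of 7 members passed, against 0.0383% of 10455 genes higher and 4.66% lower. CAVIN3 was at least 4-fold higher in 2 mice, where the mean without the highest cell was 691 in place of 1701 (mouse 5542) and 972 in place of 1167 (mouse 5546), both under 4-fold against the culture mean of 290. CAVIN2 was at least 4-fold lower in 4 mice, and without mouse 5546 it was among the 696 genes that met the rule as lower.

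**Figure D2:**
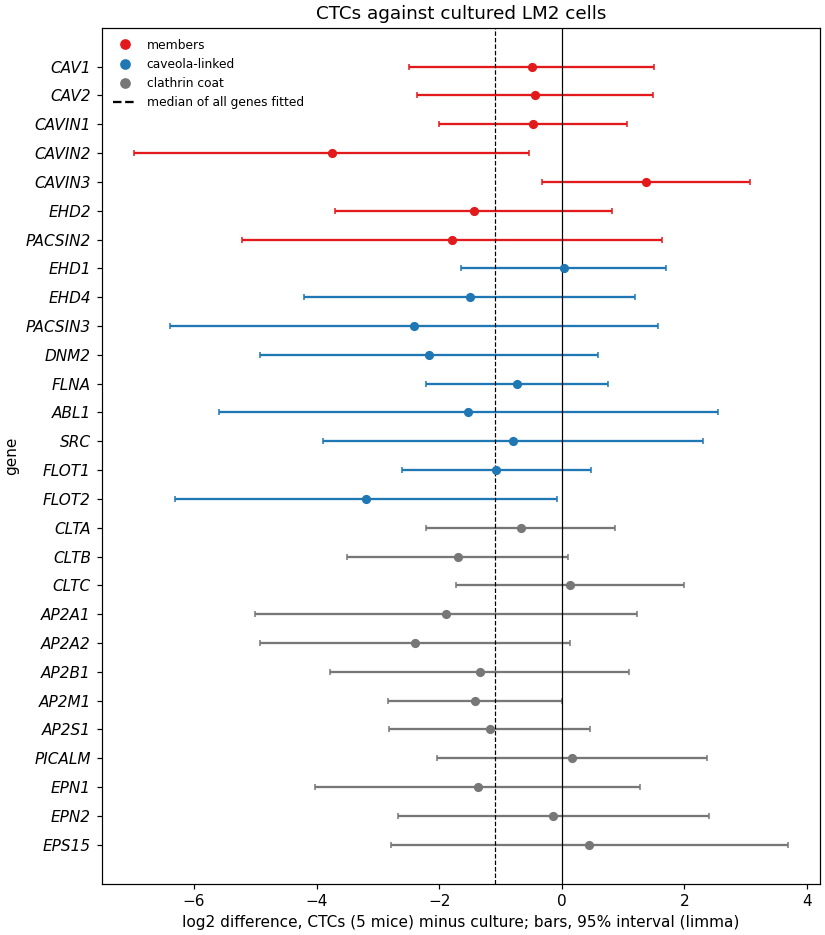
The log2 difference of CTCs (5 mice) minus culture (1 sample) is plotted for the 7 members, 9 caveola-linked genes and 12 clathrin coat genes, with 95% intervals from limma and a dashed line at the median of all genes (-1.09). CAVIN3 is farthest to the right and CAVIN2 farthest to the left, and no gene shown has an adjusted p under 0.05.

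The other genes of the pathway were described beside the members. Of 16 caveola-linked genes (other EHD and PACSIN proteins, the muscle forms CAV3 and CAVIN4, dynamins, filamin A, the kinases SRC and ABL1, flotillins and PLVAP), 14 were in the table and 9 were fitted. None of the 9 was called. With limma 8 of 9 were below 0, as were 11575 of all 14594 genes, and their median was -1.50, or -0.41 relative to all genes, while edgeR put 3 of the 9 below 0. EHD1, an EHD protein of endosome recycling, had 0.03, and filamin A (FLNA), which ties caveolae to stress fibers, had -0.73. FLOT2, a flotillin that forms separate membrane domains, had -3.19 (limma p = 0.0455, adjusted p = 0.457). Of 12 clathrin coat genes, which build the other main endocytic coat, 0 were called and the median was -1.26, or -0.17 relative to all genes. The 7 members had a median of -0.49, or 0.60 relative to all genes, and 4 of 7 were above the median of all genes.

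Levels of different genes were compared per length, as RPKM (reads per 1000000 on genes, divided by kilobases of exon). As mean of mouse means ± SD (n = 5 mice), CAVIN3 was at 671 ± 385, CAV1 at 266 ± 223, CAVIN1 at 99.5 ± 42.1, CAV2 at 21.6 ± 15.9, EHD2 at 11.0 ± 4.95, CAVIN2 at 1.37 ± 3.02 and PACSIN2 at 1.29 ± 0.78. Neighbors in this order overlapped over mice, except CAVIN1 (62.1 to 165) and CAV2 (9.88 to 49.4). CAVIN3 was the highest of the 7 in the mean of every mouse. In mouse 5542 CAVIN1 (73.0) was above CAV1 (67.2), and in the other 4 mice CAV1 was second. In culture the order began with CAV1 (168), CAVIN3 (138) and CAVIN1 (78.3), followed by EHD2 (17.3) and CAV2 (15.1). CAV2 depends on the gene model, since the level was 48.2 per length of the longest transcript and 21.6 over all exons, and CAVIN3 is a short gene with 1557 exonic bases.

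Cell by cell, CAVIN3 had the highest level per length in 24 CTCs, CAV1 in 12 and CAVIN1 in 1, and in culture CAV1 was highest in 4 cells and CAVIN3 in 2. CAVIN3 took a median of 51.3% of the summed level per length of the 7 genes in CTCs (10.6% to 94.6%) and 29.5% in cultured cells (8.00% to 54.6%). CAV1 took 28.5% (1.74% to 76.3%) and 39.7% (28.9% to 51.6%). CAVIN1 took 9.59% (0% to 52.3%) and 17.2% (9.40% to 30.7%). The ranges overlapped for each of these genes, and a range over 37 cells is likely to be wider than one over 6. The ratio of CAV1 to CAVIN1 per length ran from 0.133 in CTC 5541-1 to 52.1 in CTC 5546-s2 with a median of 3.08, and from 1.68 to 3.15 with a median of 2.12 in culture. The ratio of CAV1 to CAV2 had nearby medians, 11.6 in CTCs (1.98 to 102) and 10.9 in culture (6.76 to 19.6). CAVIN3 to CAVIN1 ran from 0.559 to 34.9 with a median of 5.34 in CTCs, and from 0.260 to 5.81 with a median of 1.61 in culture.

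**Figure D3:**
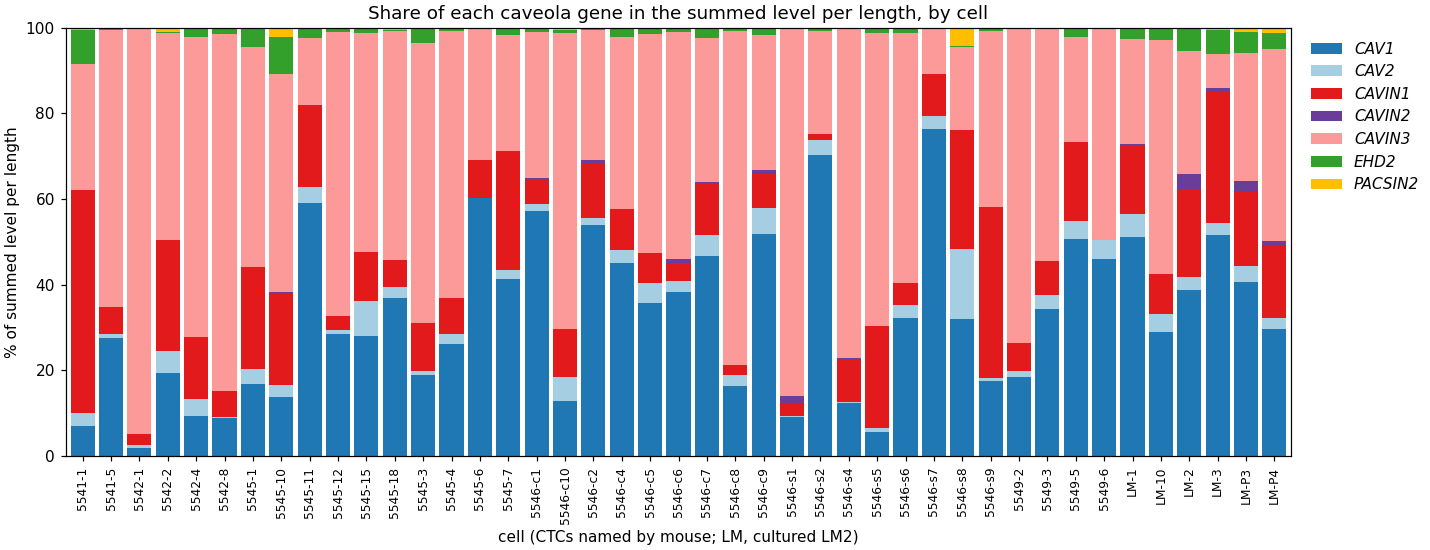
Each bar is 1 cell, split by the percent of the summed level per length (RPKM) that each caveola gene takes, with CTCs by mouse at the left and the 6 cultured cells at the right. CAVIN3 and CAV1 take most of nearly every bar, with CAVIN3 the highest in 24 of 37 CTCs and CAV1 in 4 of 6 cultured cells.

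Reads on CAV1 and CAVIN1 together, the pair needed for a caveola, were found in 36 of 37 CTCs (97.3%, exact 95% binomial interval 85.8% to 99.9%) and 6 of 6 cultured cells. CAV1, CAV2, CAVIN1, CAVIN3 and EHD2 were found together in 35 of 37 CTCs (94.6%, 81.8% to 99.3%). All 7 members had reads in 6 of 37 CTCs (16.2%, 6.19% to 32.0%) and 5 of 6 cultured cells (83.3%, 35.9% to 99.6%). Of these 6 CTCs, 4 were c cells of mouse 5546 and 2 were from mouse 5545, and the other 3 mice had none. The difference rests on CAVIN2 and PACSIN2, which were found together in the same 6 CTCs. No CTC had fewer than 4 members. With a normalized read count of at least 8 as the limit, all 7 were found in 1 of 37 CTCs (2.703%). Cultured cells also missed that limit, since LM-1 had CAVIN2 at 5.97, LM-2 had PACSIN2 at 6.27 and LM-10 had 0 for both. These shares of cells are not set beside those of other genes.

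Over the 37 CTCs the members varied together only weakly. Spearman's ρ over the 21 pairs had a median of 0.171, with 18 positive, and ran from -0.249 (CAVIN3 with PACSIN2) to 0.479 (CAV1 with CAV2). The other pairs above 0.3 were CAVIN1 with EHD2 (0.416), CAV2 with EHD2 (0.381), CAV1 with CAVIN2 (0.354), CAVIN3 with EHD2 (0.341) and CAV1 with CAVIN3 (0.334). Of all pairs of 6764 genes with a mean of at least 8 and reads in at least 30% of CTCs, 74.5% were positive. These are called all gene pairs below. CAVIN2 and PACSIN2, with means of 5.82 and 5.83, are not among those genes, so the 2 shares cover unlike sets. Among the other 5 members, 10 of 10 pairs were positive. CAV1 with CAVIN2 was weaker within mice, at 0.0806 with ranks centered within each mouse and 0.0660 in mouse 5546. Without mouse 5546 it had -0.218, but only CTCs 5545-10 and 5545-11 then had CAVIN2 reads, 2 each, so that value says little. CAV1 with CAVIN1, the 2 obligate parts of the coat, had 0.120. All points share the number of genes with reads, with which EHD2 had ρ = 0.522, CAV2 0.426 and CAV1 0.199. Given that number, CAV1 with CAV2 had 0.445, CAV2 with EHD2 had 0.205 and the median of the 21 pairs was 0.105.

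The pairs differed between sets of CTCs. CAV1 with CAV2 had ρ = 0.20 in the 10 CTCs of mouse 5545, 0.65 in the 9 c cells and 0.714 in the 8 s cells of mouse 5546. In the same order, CAV1 with CAVIN3 had 0.467, 0.583 and 0.0476, and CAVIN1 with EHD2 had 0.273, 0.633 and 0.167. CAVIN3 with EHD2 had 0.152, 0.70 and 0.214, so each of these pairs was positive in each set. CAV1 with CAVIN1 had -0.345, 0.767 and -0.50, and CAV1 with EHD2 had -0.709, 0.80 and 0.50, so these changed sign. Over the CTCs left without mouse 5546, CAV1 with CAV2 fell to 0.188 and CAV2 with EHD2 to -0.0857. Among the 5 members with reads in at least 36 CTCs, all 10 pairs were positive in the c cells, from 0.467 to 0.95 (CAV2 with EHD2), with a median of 0.65, and 61.4% of all gene pairs were positive there. The median of these 10 pairs was 0.19 in the s cells and 0.176 in mouse 5545. Over all pairs of 6764 well-detected genes the median was 0.117 in the c cells, where the 95th percentile was 0.683, 0.0627 in the s cells and 0.178 in mouse 5545. The 36 pairs of 9 clathrin coat genes had a median of 0.275 in the c cells. The c cells number 9 from 1 mouse, 5 genes give 10 pairs that are not independent, and the sets were described after their values were seen.

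Over all 37 CTCs the median of the 10 pairs was 0.307, against 0.122 over all gene pairs and 0.0760 over the clathrin pairs, and without mouse 5546 it was 0.179. Without the 4 CTCs with the fewest genes, a set chosen after the data were seen, the 10 pairs had a median of 0.29, CAV1 with CAV2 had 0.528 and CAV1 with CAVIN1 had 0.276.

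**Figure D4:**
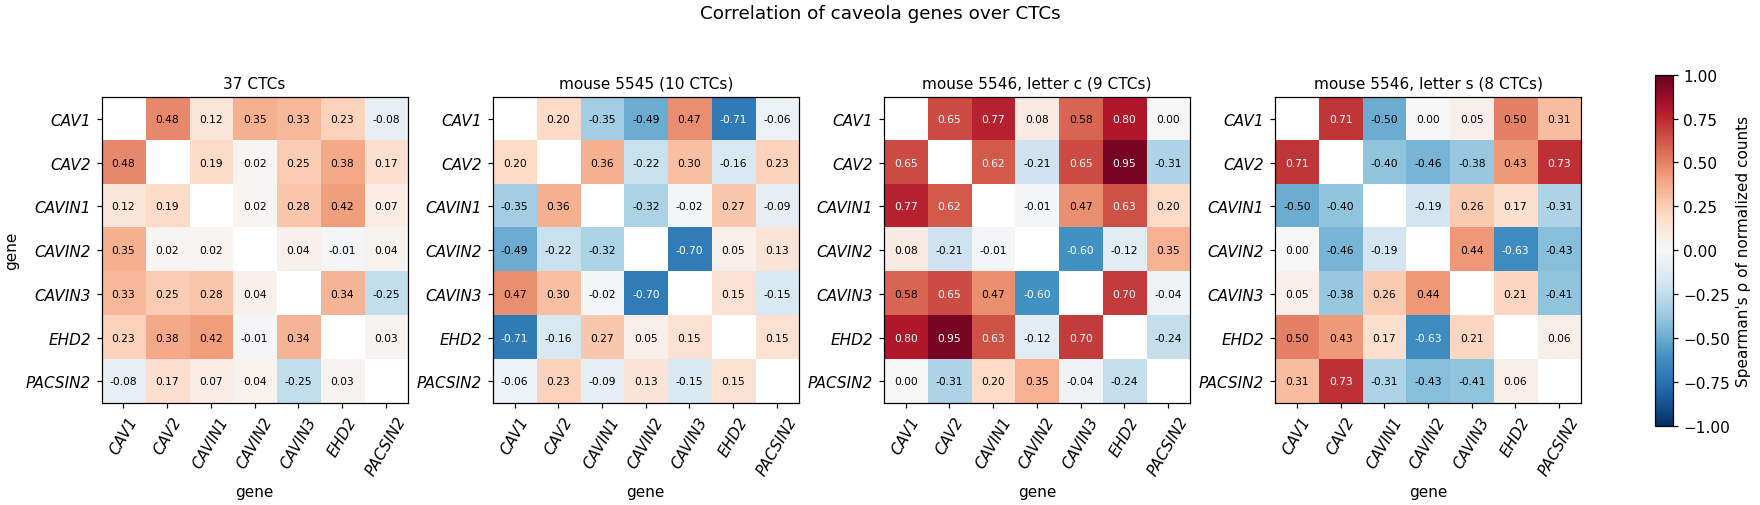
The 4 panels give Spearman's ρ (color, from -1 to 1) for each pair of the 7 genes over 37 CTCs, over mouse 5545, and over the c and s cells of mouse 5546. In the c cells the pairs among CAV1, CAV2, CAVIN1, CAVIN3 and EHD2 are all positive, and in the other small sets signs are mixed. CAV1 with CAV2, CAV1 with CAVIN3, CAVIN1 with EHD2 and CAVIN3 with EHD2 are positive in each panel.

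**Figure D5:**
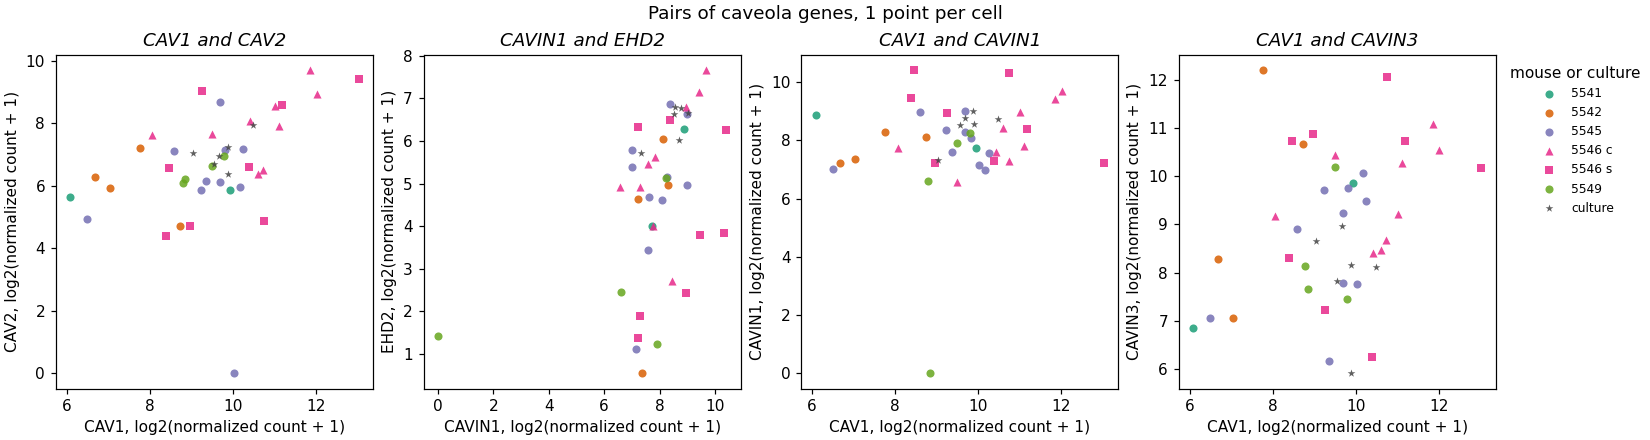
Each point is 1 cell at its log2(normalized read count + 1) of 2 genes, colored by mouse, with stars for cultured cells. High CAV1 goes with high CAV2 in part (ρ = 0.479 over 37 CTCs, 0.188 without mouse 5546). CAV1 and CAVIN1 spread over the panel (ρ = 0.120 over 37 CTCs).

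Among 6763 other well-detected genes, CAV2 ranked 48 by its ρ with CAV1, CAVIN3 371, EHD2 1133 and CAVIN1 2417. The 5 genes most like CAV1 over the 37 CTCs were the long noncoding RNA LINC01605 (ρ = 0.652), THBS1 (0.629), which encodes the matrix protein thrombospondin-1, the kinase gene NUAK1 (0.626), FRS2 (0.601), an adaptor of fibroblast growth factor receptors, and the ubiquitin ligase gene UBE4A (0.588). LINC01605 and NUAK1 had reads in 13 of 37 CTCs each, FRS2 in 22, UBE4A in 26 and THBS1 in 30. The ρ of these 5 genes with CAV1 was 0.202 (THBS1) to 0.544 in mouse 5545, and 0.458 (NUAK1) to 0.726 (LINC01605) in mouse 5546. For CAVIN1, the nearest member was EHD2, at rank 275. The 5 genes most like CAVIN1 were BNIP2 (0.724), the ubiquitin ligase gene MARCHF6 (0.672), the glutamate dehydrogenase gene GLUD1 (0.666), the actin-binding LASP1 (0.658) and the RNA-binding HNRNPK (0.653). Each set of 5 was picked as the highest of 6763 values, which favors a large ρ in these cells.

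Other caveola-rich cell types were checked by their markers. Of 10 endothelial genes, 7 were in the table, and their summed normalized read count was 0 to 594 in CTCs and 137 to 872 in culture, and ESAM, with a culture mean of 434, made up most of the latter. In CTCs, ESAM had reads in 31 of 37 (mean 107) and EGFL7 in 16 of 37 (mean 9.82). The defining endothelial genes PECAM1 and VWF had reads in 6 and 2 of 37 CTCs, with means of 0.79 and 0.846. TEK, EMCN and TIE1 had reads in 1, 1 and 2 CTCs. Fibroblast genes (5 of 7 in the table) summed to 0 to 190 in CTCs and 0 to 37.99 in culture, and adipocyte genes (3 of 6) to 0 to 192 and 0 to 20.2. Erythroid genes (5 of 7 in the table) summed to 0 to 12522 in CTCs and to 0 in every cultured cell, and leukocyte genes (8 of 12) to 0 to 839 and 0 to 7.96. The part of such RNA in the members' values was not tested.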

How the data were processed

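Single-cell SMARTseq2 libraries of 37 LM2 CTCs from 5 mice and 6 cultured LM2 cells were used, and 4 further labelled CTCs were not analysed here. The deposited values are a signal: the authors used STAR 2.7.10a with GRCh38 and GENCODE release 38, tallied unique alignments on each gene ignoring strand, and scaled the tallies by DESeq2 1.42.1 size factors. Alignment was to the human genome, and blood came from mice. When the lowest positive value of a cell was taken as 1 read, whole reads resulted for 100% of values (tolerance 0.001). Depth was 469614 to 2041333 reads on genes per cell, and amplification cycles differed between cells, so intervals cover counting error only. Gene coordinates and exon lengths are from GENCODE release 44 (25565 of 25739 genes matched), which may differ from the models used for counting.

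Cells were assigned to mice by their titles. Cell means per mouse were compared with the culture mean by limma 3.58.1 (trend) on log2(mean + 1), with Benjamini-Hochberg adjustment over 14594 genes with reads in at least 5 of 43 cells. The culture is 1 sample and was assumed to vary as mice do, so p-values rest on the spread between mice. edgeR 4.0.16 on summed recovered reads (12239 genes with a mean of at least 10 reads) and a rule of size were the other comparisons. The rule of size took the larger mean to be at least 8. Correlations are Spearman's ρ with no p. The library titles name no batch, and the letters in the titles of mouse 5546 and of some cultured cells are not explained. The tests were also run on simulated data, and the outcome is not given here. The members and lists were chosen with earlier results of these data known. Genes named beyond the lists are the 5 most like CAV1 and the 5 most like CAVIN1 among 6764 genes with a mean of at least 8 and reads in at least 30% of CTCs. Alternatives were other pseudocounts, filters, scalings, thinning to 469614 reads and leaving out each mouse or cultured cell.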

Additional observations from a re-analysis of the deposited data

Results flagged for a closer look

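Among 35 groups of 4 to 10 cells or mouse means examined, on the log2(value + 1) scale, 6 held a value farther from the others than Dixon's limit allows. With a normal spread about 1 in 20 groups would do so. Several of these groups hold values of 0, so that rate cannot be set beside the 6 of 35. The mean of CAVIN2 in mouse 5546 was 12.5 normalized reads, against 0 to 0.255 in the other 4 mice. CAV1 in CTC 5545-10 was 89.0, against 384 to 1224 in the other CTCs of its mouse. CAV2 in CTC 5545-6 was 0, against 29.7 to 410. In culture, CAVIN1 was 159 in LM-10, against 365 to 518 in the other 5 cells, and CAVIN3 was 58.8 in LM-3, against 226 to 499. PACSIN2 was 3.72 in CTC 5549-5 and 0 in the other 3 CTCs of that mouse, where any value above 0 would have been flagged.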

How the results depend on the processing

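The signs of the CAVIN2, CAVIN3, EHD2 and PACSIN2 differences held under every alternative that fitted them. The log2 differences were -6.07 to -1.66, 0.95 to 2.89, -2.15 to -0.05 and -2.09 to -0.43. For EHD2 the edgeR value of -0.05 (edgeR p = 0.959) was close to none. Relative to the median of all genes EHD2 was at 0.05 with a pseudocount of 0.1. The signs of CAV1, CAV2 and CAVIN1 turned with edgeR on summed reads, to 1.21, 1.07 and 0.87 (TMM) and 1.19, 1.05 and 0.86 (RLE). The cause was not tested. The number of genes called higher and lower (3 and 78) was 1 and 476 with a pseudocount of 8, 1 and 1800 with no filter, 1 and 0 with a mean of at least 8, and 0 and 0 with edgeR (TMM and RLE). It was 0 lower with a pseudocount of 0.1, 5 after thinning and 989 with the mean of log2 values, where 1 member, CAVIN2, was called. Leaving out each mouse or cultured cell in turn gave 0 to 3 higher, 0 to 384 lower (0 without mouse 5541, 5542, 5545 or 5549, and 384 without mouse 5546) and 0 to 1 members (CAVIN2 without mouse 5546). Under the rule of size (4 higher, 487 lower, 0 members), a pseudocount of 8 left 144 lower, 2-fold gave 10 and 2298, and medians over cells gave 1 and 1357 with 1 member, CAVIN2. Leaving out each in turn gave 4 to 9 higher, 397 to 757 lower (757 without mouse 5545) and 0 to 1 members (CAVIN2 without mouse 5546). The median ρ of the 21 pairs was 0.105 given genes with reads and 0.110 to 0.227 with each mouse left out. All 7 members at 8 or more were found in 2.703% of CTCs, and CAV1 with CAVIN1 in 95% to 100% with each mouse left out. Removing the 4 CTCs with the fewest genes, added after seeing the data, left 3 genes called higher, 64 lower and 0 members. No paired analysis was possible because replicate numbers only name cells and the culture is 1 sample.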
